A study of Mus musculus with 6 samples.

Results

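Cells mend broken DNA through homologous recombination, through end joining and, where the strands are crosslinked, through the Fanconi pathway. The 35 genes described here encode proteins of these routes and of the signalling that starts them, and they were chosen by name: the deposited symbol had to equal a member of a fixed list. All 35 were found among the 54532 genes of the FPKM table, Mre11a and H2afx under these older symbols. All 35 also had a mean of at least 1 FPKM (fragments scaled to the gene's exon length and to the depth of the library) and were among the 12098 genes tested.

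Total RNA was taken from embryonic fibroblasts of the mouse that had been transformed with HRasV12, a constitutively active Ras, and with E1A, an oncoprotein of adenovirus. The control group, shLuc_dox, carried a control hairpin labelled shLuc, and in the knockdown group, shMettl3_dox, it was directed at Mettl3 (its number in the deposited column names is 2), which encodes the enzyme that deposits N6-methyladenosine on mRNA. Each group had 3 libraries, and both groups received doxorubicin, a topoisomerase poison that leaves DNA breaks, at 0.2 ug/ml for 6 hours. No library without doxorubicin and no cells without the oncogenes were analysed here, so the comparison is of the 2 hairpins within damaged, transformed cells. The labels give neither the hairpin sequence nor the origin of the replicates. Every p-value therefore rests on differences between these libraries alone, which may be technical and not those of separate cultures.

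Mettl3 itself stood at 2.73 ± 0.360 FPKM in the control and 1.49 ± 0.185 FPKM in the knockdown (SD, n = 3 each), lower in 3 of 3 knockdown libraries (log2 change -0.58, limma adjusted p = 0.00861). At this level the log2(FPKM + 1) scale understates the change: the ratio of the means was 0.545. On recovered reads edgeR gave a log2 change of -0.89 and DESeq2 one of -0.90. Recovered reads totalled 16677349 to 24950501 per library. Replicate 3 of shMettl3_dox stood apart: the chi-square statistic of its reads against those of the other two knockdown libraries, divided by its degrees of freedom, was 12.7 and 14.5, beside 3.45 to 4.76 for all other pairs within a group, so values without it are given where they matter. Of 15 fibroblast markers 7 averaged at least 1 FPKM, led by Vim at 761 FPKM. Col1a1, Col1a2, Col3a1, Thy1, Postn, Dcn, Lum and S100a4, which include the defining fibrillar collagens, averaged under 1 FPKM. The summed fibroblast markers were 959 to 1007 FPKM in control libraries and 848 to 915 in knockdown libraries. Of 6 epithelial markers 3 averaged at least 1 FPKM, with sums of 58.4 to 61.6 against 36.4 to 42.3 FPKM (Krt18 highest). Of 6 leukocyte markers only Cd68, which is not restricted to leukocytes, averaged at least 1 FPKM (sums 15.4 to 18.1 against 9.47 to 11.1 FPKM, with Cd3e listed at 0 throughout). The 5 endothelial markers summed to under 1 FPKM in every library (0.322 to 0.386 against 0.210 to 0.362), with Emcn listed at 0.

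As background, a broken end is first marked: the Mre11 nuclease complex finds it, histone H2A.X is phosphorylated beside it, and the ubiquitin ligases Rnf8 and Rnf168 build a platform on the chromatin. Ku then holds the ends for ligation by Xrcc4 and Lig4, or nucleases resect them so that Brca1, Palb2 and Brca2, with a family of paralogs, can prepare the strand for pairing with an intact copy. At an interstrand crosslink the Fanconi core complex ubiquitinates Fancd2 and Fanci, which bring in nucleases. Many of these genes are transcribed together with the replication genes as cells enter S phase.

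In the knockdown 5 of the 35 genes were lower and 0 were higher, and 30 did not pass the test. The 5 were Fancg, a Fanconi core subunit; Rad51d, a paralog that acts in homologous recombination; Slx4, the scaffold of several structure-specific nucleases; Fancm, the DNA translocase that anchors the Fanconi core; and Nhej1, an end joining factor. Their share of the 35, 14.3%, lay beside 13.5% lower among all 12098 genes tested (limma on log2(FPKM + 1), two-sided, Benjamini-Hochberg adjusted p under 0.05), and for higher genes the 0 lay beside 14.6%. In the limma fit 1 gene, Exo1, was higher at an unadjusted p under 0.05, and neither edgeR nor DESeq2 called any of the 35 higher after adjustment. All changes were small: the median log2 change of the 35 was -0.02, beside 0.01 for all genes tested, and the median size of change without its sign was 0.0946, beside 0.147. In bulk RNA, fewer cells that express a gene and less of its RNA per cell cannot be told apart.

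The windows around the annotated transcript starts of 4 of the 5 lower genes are printed here. They show which of the searched motifs are present, to be read against all promoters. Each is 250 bases before to 50 after the start, from RefSeq (GRCm38.p6), on the strand of the gene and 5′ to 3′. Capitals mark motifs found on either strand. An E2F-type motif, GCGGGAA, appears as TTCCCGC when it lies on the reverse strand. The GC box, GGGCGG, then appears as CCGCCC. The remaining motif in capitals is the box named for its letters, CCAAT.
Fancg promoter: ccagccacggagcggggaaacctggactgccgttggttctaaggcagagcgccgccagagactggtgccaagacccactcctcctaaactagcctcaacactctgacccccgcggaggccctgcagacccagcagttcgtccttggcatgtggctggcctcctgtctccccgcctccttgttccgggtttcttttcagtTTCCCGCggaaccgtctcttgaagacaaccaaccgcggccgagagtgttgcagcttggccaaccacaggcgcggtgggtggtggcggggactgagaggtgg
Fancm promoter: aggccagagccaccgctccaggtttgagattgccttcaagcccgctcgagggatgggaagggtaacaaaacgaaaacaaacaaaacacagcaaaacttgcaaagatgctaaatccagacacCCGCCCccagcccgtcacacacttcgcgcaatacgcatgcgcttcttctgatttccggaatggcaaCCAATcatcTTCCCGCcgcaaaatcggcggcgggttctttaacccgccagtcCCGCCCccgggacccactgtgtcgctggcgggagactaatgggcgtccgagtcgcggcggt
Nhej1 promoter: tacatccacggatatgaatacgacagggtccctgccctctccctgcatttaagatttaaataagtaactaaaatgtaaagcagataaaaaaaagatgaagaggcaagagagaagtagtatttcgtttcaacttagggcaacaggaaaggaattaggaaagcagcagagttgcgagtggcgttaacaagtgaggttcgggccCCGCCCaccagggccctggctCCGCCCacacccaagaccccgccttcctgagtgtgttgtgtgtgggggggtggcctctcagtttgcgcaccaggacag
Slx4 promoter: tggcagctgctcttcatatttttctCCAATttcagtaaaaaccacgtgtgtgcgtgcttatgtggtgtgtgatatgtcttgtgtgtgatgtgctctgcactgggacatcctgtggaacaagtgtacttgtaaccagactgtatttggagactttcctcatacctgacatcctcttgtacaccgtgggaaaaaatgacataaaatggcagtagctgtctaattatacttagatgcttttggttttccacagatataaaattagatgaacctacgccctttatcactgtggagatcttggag
The Fancg window is chr4:43010252-43010551 (minus strand), and its TTCCCGC begins at -51 from the start. Fancg as GENCODE draws it begins upstream of that start, at base 43010506. Most of this window, with its TTCCCGC, therefore lies inside the gene. Fancm's window is chr12:65075353-65075652 (plus strand), with CCGCCC at -129, CCAAT at -63, TTCCCGC at -54 and CCGCCC again at -11. That of Nhej1 is chr1:75125177-75125476 (minus strand), with CCGCCC at -49 and -28. The Slx4 window is chr16:4001629-4001928 (minus strand), with CCAAT at -225 and neither of the other motifs, and it lies inside the gene as GENCODE draws it. The nearest transcript start of the GENCODE M21 annotation is 54, 0, 26 and 2 bases from the RefSeq start in Fancg, Fancm, Nhej1 and Slx4. RefSeq windows matched 28 of the 35 genes (32 windows, as some genes have more than 1), without H2afx, Rbbp8, Exo1, Rad51d, Xrcc2, Rif1 and Fancd2. GCGGGAA was in 11 of the 32 (34.4%), beside 4.60% of all 32851 promoters and 8.73% of the 11202 promoters of tested genes. It was found for Bard1, Brca2, Fancg, Fanci, Fancm, Rad51c, Rad52, Rnf168, Rnf8, Xrcc4 and Xrcc6. The median log2 change was -0.08 for these 11 genes and -0.02 for the 17 matched genes without the motif. CCAAT was in 53.1% of the 32 windows (37.4% of all promoters, 38.4% of tested ones) and GGGCGG in 68.8% (35.7% and 65.3%). For the CHR-type motifs the shares were 9.38% for TTTGAA (17.9% and 11.6%) and 0% for TTCGAA (1.56% and 2.06%). GCGGGAA and GGGCGG can share bases, and a match of letters is a description, not a site.

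**Figure D1:**
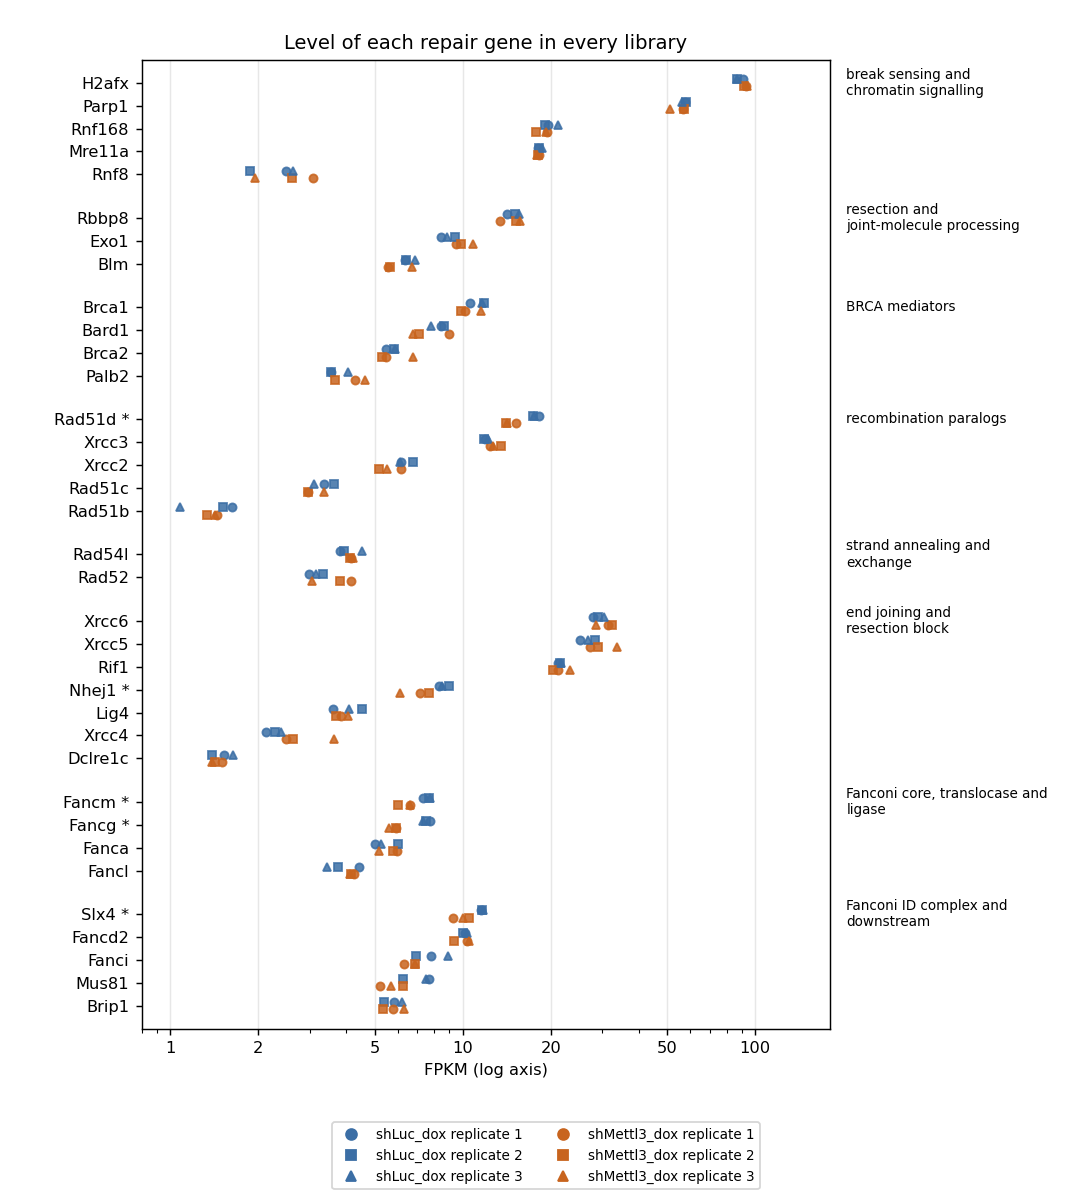
Level of each of the 35 repair genes in every library, in FPKM on a log axis, grouped by role; blue symbols are the shLuc_dox libraries, orange symbols the shMettl3_dox libraries, the shape gives the replicate, and an asterisk marks a gene with an adjusted p under 0.05. Levels run from about 1.4 FPKM (Rad51b) to 92.8 FPKM (the H2afx knockdown mean), and for most genes the colours overlap or lie close.

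Among the break sensing and chromatin genes 0 of 5 were called lower or higher by limma (0 at an unadjusted p under 0.05 either way), and edgeR and DESeq2 called 0. Over all genes tested limma called 13.5% lower and 14.6% higher, edgeR 16.4% and 17.0%, and DESeq2 16.5% and 15.7%. With only 5 genes no share can be read from this. H2afx, the histone variant, was the most abundant of the 35 genes, at 90.9, 86.4 and 86.4 FPKM in shLuc_dox replicates 1 to 3 and 93.3, 91.7 and 93.6 FPKM in shMettl3_dox replicates 1 to 3. Every knockdown library was above every control library, yet the log2 change was only 0.08 (SE 0.0383, limma adjusted p = 0.176). Parp1, which binds breaks and makes poly(ADP-ribose) there, was next at 57.3, 58.0 and 56.3 against 56.7, 56.9 and 51.2 FPKM. Its lowest value was that of shMettl3_dox replicate 3, and its log2 change of -0.06 (SE 0.0505, limma adjusted p = 0.423) was -0.01 without that library. Mre11a, the nuclease of the end-sensing complex, was at 18.1, 18.3 and 18.7 against 18.3, 18.1 and 17.9 FPKM. Its log2 change of -0.02 had the smallest standard error of the 35 (0.0377) and a 95% interval from -0.11 to 0.07. The paired ubiquitin ligases stood far apart in level, Rnf168 at 19.9 ± 1.01 and 18.8 ± 0.855 FPKM and Rnf8 at 2.33 ± 0.403 and 2.54 ± 0.562 FPKM. Rnf8 had the widest interval of the 35, with 2.49, 1.88 and 2.64 FPKM in the control and 3.07, 2.61 and 1.95 FPKM in the knockdown (log2 change 0.08, SE 0.147, limma adjusted p = 0.719). Part of its exons, 13.2%, lies on the same strand as the gene Gm28043.

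Genes of resection and joint-molecule processing did not pass either: 0 of 3 were lower and 0 higher by limma, edgeR and DESeq2. This lay beside 13.5% lower and 14.6% higher by limma over all genes tested, and 3 genes are too few to read a share. Exo1, the exonuclease that lengthens resected ends, came nearest to a rise. It stood at 8.42, 9.43 and 8.83 FPKM in the control and 9.49, 9.88 and 10.8 FPKM in the knockdown. The groups did not overlap, by a narrow margin, and limma gave a log2 change of 0.16 (SE 0.0646, adjusted p = 0.108). Without shMettl3_dox replicate 3, its highest library, the change was 0.11. Rbbp8, which encodes CtIP, the partner of the Mre11 complex at the first step of resection, was at 14.9 ± 0.669 and 14.8 ± 1.2 FPKM. Blm, the helicase that takes joint molecules apart, stood at 6.35, 6.40 and 6.87 against 5.53, 5.63 and 6.72 FPKM. Knockdown replicate 3 lay with the controls, and the log2 change was -0.12 (limma adjusted p = 0.300).

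Among the BRCA mediators 0 of 4 were called in either direction (0 at an unadjusted p under 0.05, and 0 by edgeR and DESeq2). Limma called 13.5% lower and 14.6% higher over all genes tested, so 4 genes are too few to read a share. Brca1 and Bard1 encode the partners of a ubiquitin ligase. Brca1 was at 10.6, 11.8 and 11.7 FPKM in the control and 10.2, 9.87 and 11.5 FPKM in the knockdown (log2 change -0.10, limma adjusted p = 0.326). Bard1 was at 8.42, 8.61 and 7.81 against 8.98, 7.07 and 6.78 FPKM (-0.12, limma adjusted p = 0.426). The knockdown libraries of Bard1 spread over more than the whole control range. Palb2, which bridges Brca1 and Brca2, stood at 3.53, 3.55 and 4.06 against 4.29, 3.65 and 4.63 FPKM (0.14, limma adjusted p = 0.309). Brca2, a mediator that acts on resected DNA, was at 5.47, 5.83 and 5.87 against 5.46, 5.28 and 6.75 FPKM. Its log2 change of 0.02 became -0.08 without shMettl3_dox replicate 3, which was its highest library.

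Of the 5 recombination paralogs (Rad51b, Rad51c, Rad51d, Xrcc2 and Xrcc3), 1 was lower, beside 13.5% of all genes tested. Higher paralogs numbered 0, beside 14.6% (0 higher at an unadjusted p under 0.05, and 0 by edgeR and DESeq2). Rad51d (ENSMUSG00000018841, GRCm38 chromosome 11, 82876434 to 82890614, minus strand) was at 18.2, 17.4 and 17.5 FPKM in the control libraries and 15.2, 14.1 and 14.1 FPKM in the knockdown libraries. The groups were well separated, with all knockdown values under the lowest control value. The mean was 17.7 ± 0.464 FPKM in the control and 14.5 ± 0.629 FPKM in the knockdown (SD, n = 3 each), a ratio of 0.817, and limma gave a log2 change of -0.28 with SE 0.0471 (adjusted p = 0.00638). Rad51d was also the most abundant paralog. Its complex partner Xrcc2 stood at 6.16, 6.74 and 6.12 against 6.14, 5.16 and 5.52 FPKM (log2 change -0.15, limma adjusted p = 0.160). Rad51c, which belongs to both paralog complexes, was at 3.36, 3.64 and 3.09 against 2.95, 2.95 and 3.36 FPKM (-0.09, limma adjusted p = 0.426). For these genes the ranges of the groups overlapped. Xrcc3, found in a complex with Rad51c, was at 11.9, 11.8 and 12.2 FPKM in the control and 12.4, 13.5 and 12.7 FPKM in the knockdown (0.10, limma adjusted p = 0.176). Rad51b had the lowest level of the 35, at 1.62, 1.51 and 1.08 against 1.45, 1.34 and 1.43 FPKM. With 68 to 137 recovered reads per library, its log2 change of 0.01 (SE 0.122, limma adjusted p = 0.973) had a 95% interval from -0.28 to 0.30.

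Neither gene of strand annealing and exchange passed, with 0 called by limma, edgeR and DESeq2 (0 at an unadjusted p under 0.05 in limma). That 0 lay beside 13.5% lower and 14.6% higher by limma over all genes tested, and 2 genes allow no share. Rad52, known in yeast as the main annealing and mediator protein, stood at 2.98, 3.34 and 3.14 against 4.15, 3.81 and 3.05 FPKM. Knockdown replicates 1 and 2 were above all controls and replicate 3 was among them (log2 change 0.16, SE 0.101, limma adjusted p = 0.275). Rad54l, a translocase that promotes strand invasion, was at 3.81, 3.92 and 4.53 against 4.15, 4.10 and 4.21 FPKM (0.02, limma adjusted p = 0.856). The exons of Rad54l overlap those of Lrrc41 on the other strand over 15.4% of their length.

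In end joining 1 of 7 genes was lower, Nhej1, beside 13.5% of all genes tested. The higher genes numbered 0, beside 14.6% (0 higher at an unadjusted p under 0.05, and 0 by edgeR and DESeq2). Nhej1 (ENSMUSG00000026162, chromosome 1, 74967139 to 75125200, minus strand) encodes XLF, which stabilises the ligation complex with Xrcc4. It stood at 8.31, 8.94 and 8.51 FPKM in the control and 7.17, 7.67 and 6.12 FPKM in the knockdown. The groups did not overlap, and the lowest value was that of shMettl3_dox replicate 3. Its mean was 8.58 ± 0.322 FPKM in the control and 6.99 ± 0.789 FPKM in the knockdown, a ratio of 0.814, and limma gave a log2 change of -0.27 with SE 0.0790 (adjusted p = 0.0445). It was the call nearest to the threshold, and on its 138 to 202 recovered reads per library neither edgeR (adjusted p = 0.115) nor DESeq2 (adjusted p = 0.144) made it; without shMettl3_dox replicate 3 limma gave -0.19 (adjusted p = 0.0527).

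The Ku subunits, which ring the broken end, were the most abundant end joining genes. Xrcc6 was at 27.9, 29.1 and 30.3 FPKM in the control and 31.4, 32.3 and 28.6 FPKM in the knockdown (log2 change 0.08, SE 0.0578, limma adjusted p = 0.367). Xrcc5 was at 25.3, 28.3 and 26.7 against 27.3, 28.9 and 33.7 FPKM (0.15, limma adjusted p = 0.212). Knockdown replicate 3 was the highest library for Xrcc5 and the lowest knockdown library for Xrcc6, and without it the change of Xrcc5 was 0.07. Xrcc4, the ligase scaffold, had the largest positive change of the 35, at 2.13, 2.29 and 2.40 FPKM in the control and 2.49, 2.63 and 3.64 FPKM in the knockdown (0.25, SE 0.121, limma adjusted p = 0.174). Every knockdown library was above the controls, but without replicate 3 the change was 0.12. Lig4, the ligase, stood at 3.60, 4.54 and 4.07 against 3.83, 3.69 and 4.05 FPKM (-0.06, limma adjusted p = 0.651). Dclre1c, which encodes the end-trimming nuclease Artemis, stood at 1.53, 1.39 and 1.64 against 1.51, 1.42 and 1.39 FPKM (-0.05, SE 0.0968, limma adjusted p = 0.764). Rif1, which holds back resection, was at 21.4 ± 0.203 and 21.6 ± 1.45 FPKM.

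Of the Fanconi core, translocase and ligase genes 2 of 4 were lower, Fancg and Fancm, beside 13.5% of all genes tested. With only 4 genes no share can be read from this. Higher genes numbered 0, beside 14.6% (0 higher at an unadjusted p under 0.05, and 0 by edgeR and DESeq2). Fancg (ENSMUSG00000028453, chromosome 4, 43002343 to 43010506, minus strand) encodes a core subunit that binds Fanca. It was at 7.73, 7.51 and 7.33 FPKM in the control libraries and 5.92, 5.90 and 5.58 FPKM in the knockdown libraries. The gap between the groups was wider than the spread within either. Its mean was 7.52 ± 0.203 FPKM in the control and 5.80 ± 0.190 FPKM in the knockdown, a ratio of 0.771, the largest relative fall of the 35, and limma gave a log2 change of -0.33 with SE 0.05 (adjusted p = 0.00433). Fancm (ENSMUSG00000055884, chromosome 12, 65075603 to 65132058, plus strand) stood at 7.30, 7.68 and 7.71 against 6.61, 6.00 and 6.6 FPKM. Again all knockdown values were under all control values. The mean was 7.57 ± 0.233 FPKM in the control and 6.40 ± 0.349 FPKM in the knockdown, a ratio of 0.846, and limma gave a log2 change of -0.21 with SE 0.0557 (adjusted p = 0.0306). Fanca, the partner of Fancg in the core, did not pass, at 4.99, 6.00 and 5.26 against 5.94, 5.79 and 5.16 FPKM (0.05, limma adjusted p = 0.698). Fancl, the ubiquitin ligase subunit, was at 4.40, 3.73 and 3.44 against 4.25, 4.14 and 4.10 FPKM (0.09, limma adjusted p = 0.451).

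Among the ID complex and the proteins that act downstream, 1 of 5 genes was lower by limma, Slx4, beside 13.5% of all genes tested. Calls of higher genes numbered 0, beside 14.6% (0 higher at an unadjusted p under 0.05, and 0 by edgeR and DESeq2). All 5 log2 changes were negative, with a median of -0.20, and over all genes tested 5705 of 12098 were negative. Those of Fancd2 (-0.01) and Brip1 (-0.0029) lay near 0 and changed sign in some fits with 1 library left out. Slx4 (ENSMUSG00000039738, chromosome 16, 3979105 to 4003770, minus strand) was at 11.5, 11.7 and 11.8 FPKM in the control and 9.25, 10.5 and 10.0 FPKM in the knockdown. Controls were tightly grouped and all knockdown values lay under them. The mean was 11.7 ± 0.120 FPKM in the control and 9.94 ± 0.647 FPKM in the knockdown, a ratio of 0.853, and limma gave a log2 change of -0.21 with SE 0.0545 (adjusted p = 0.0282). Mus81, a nuclease that works on the Slx4 scaffold, stood at 7.66, 6.24 and 7.46 against 5.19, 6.25 and 5.70 FPKM. Control replicate 2 and knockdown replicate 2 were at nearly the same level. Limma did not call its log2 change of -0.27 (SE 0.0906, adjusted p = 0.0635), while edgeR (adjusted p = 0.0267) and DESeq2 (adjusted p = 0.0199) did. Its exons overlap the more abundant Efemp2 on the other strand over 4.85% of their length. Fanci was at 7.79, 6.90 and 8.89 against 6.28, 6.89 and 6.86 FPKM (-0.20, limma adjusted p = 0.135), and edgeR (adjusted p = 0.0499) and DESeq2 (adjusted p = 0.0406) called it lower. The exons of Fanci overlap those of Polg on the other strand over 16% of their length. Fancd2, which pairs with Fanci, was at 10.1, 10.0 and 10.3 against 10.4, 9.32 and 10.5 FPKM (-0.01, limma adjusted p = 0.880). Brip1, a helicase bound by Brca1, was at 5.84, 5.40 and 6.22 against 5.78, 5.35 and 6.28 FPKM (-0.0029, limma adjusted p = 0.982). For Brip1 the libraries of the groups were interleaved, and for Fancd2 all control values lay within the knockdown range.

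**Figure D2:**
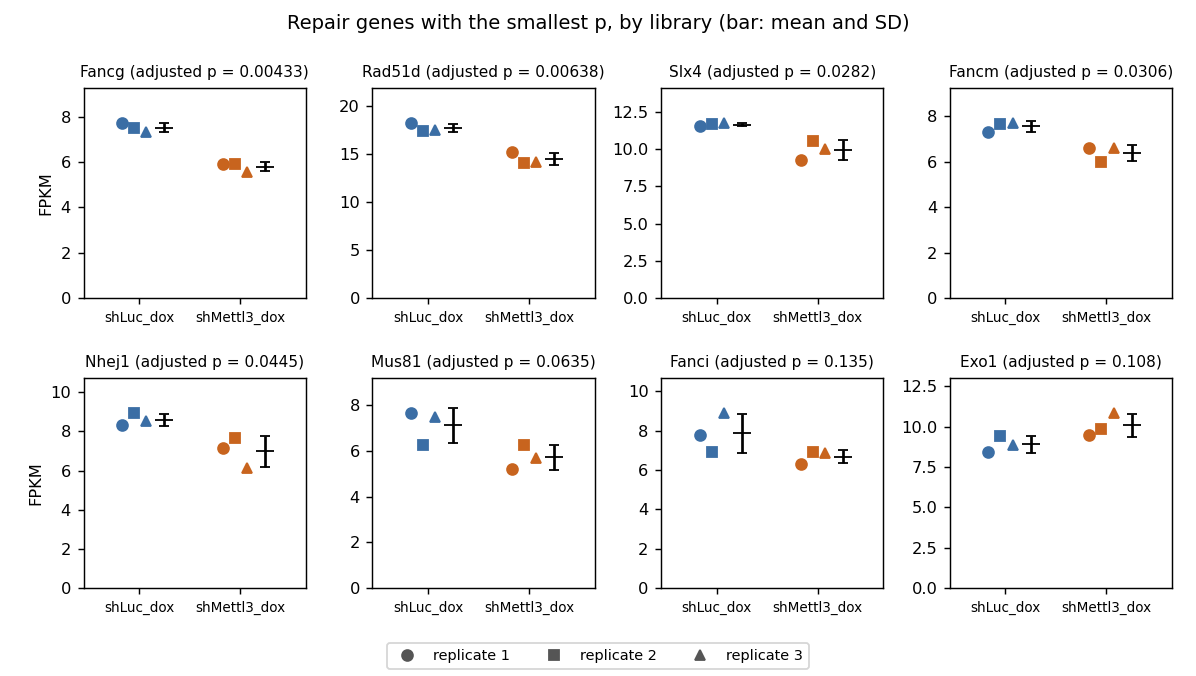
FPKM in each library for the 8 repair genes with the smallest unadjusted p, with the axis from 0; blue symbols are shLuc_dox, orange symbols shMettl3_dox, the shape gives the replicate, and the bar gives mean and SD (n = 3). The first 5 panels passed the test and fell by a ratio between 0.771 and 0.853; Mus81, Fanci and Exo1 did not pass.

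Rad51d and Fancg were the firmest of the calls: they passed in limma with each library left out in turn (adjusted p from 0.0125 to 0.0296 and from 0.00892 to 0.0220) and in edgeR and DESeq2. Slx4 and Fancm were also called by edgeR and DESeq2, but with 1 library left out their limma adjusted p ranged from 0.0275 to 0.0839 and from 0.0357 to 0.0981, and that of Nhej1 from 0.0324 to 0.133. The count of 5 became 2 when any of shLuc_dox replicate 1, shLuc_dox replicate 3 and shMettl3_dox replicate 1 was left out, and 3 without shLuc_dox replicate 2. Without shMettl3_dox replicate 3 it was 4, with Rad51d, Fancg, Fancm and Slx4. By edgeR and by DESeq2 6 of the 35 were lower (Rad51d, Fancg, Fancm, Fanci, Slx4 and Mus81) and 0 higher. Across all genes edgeR called 16.4% lower and 17.0% higher, and DESeq2 16.5% and 15.7%. In the authors' deposited table of genes lower in the knockdown, 4 of the 35 were listed, with log2 fold changes there of -0.28 for Rad51d, -0.37 for Fancg, -0.23 for Fancm and -0.23 for Slx4. Those 4 are 11.4% of the 35, beside 13.8% of the genes tested here.

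Counted by whether the groups overlapped, 6 of the 35 had every knockdown library under every control library, the 5 lower genes and Fanci, beside 21.5% of all genes tested. The 4 with every knockdown library above were H2afx, Exo1, Xrcc3 and Xrcc4, beside 23.6%. Among the 6 libraries, shMettl3_dox replicate 3 was the highest for 10 of the 35 genes, shMettl3_dox replicate 2 the lowest for 10 and shLuc_dox replicate 1 the lowest for 9.

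**Figure D3:**
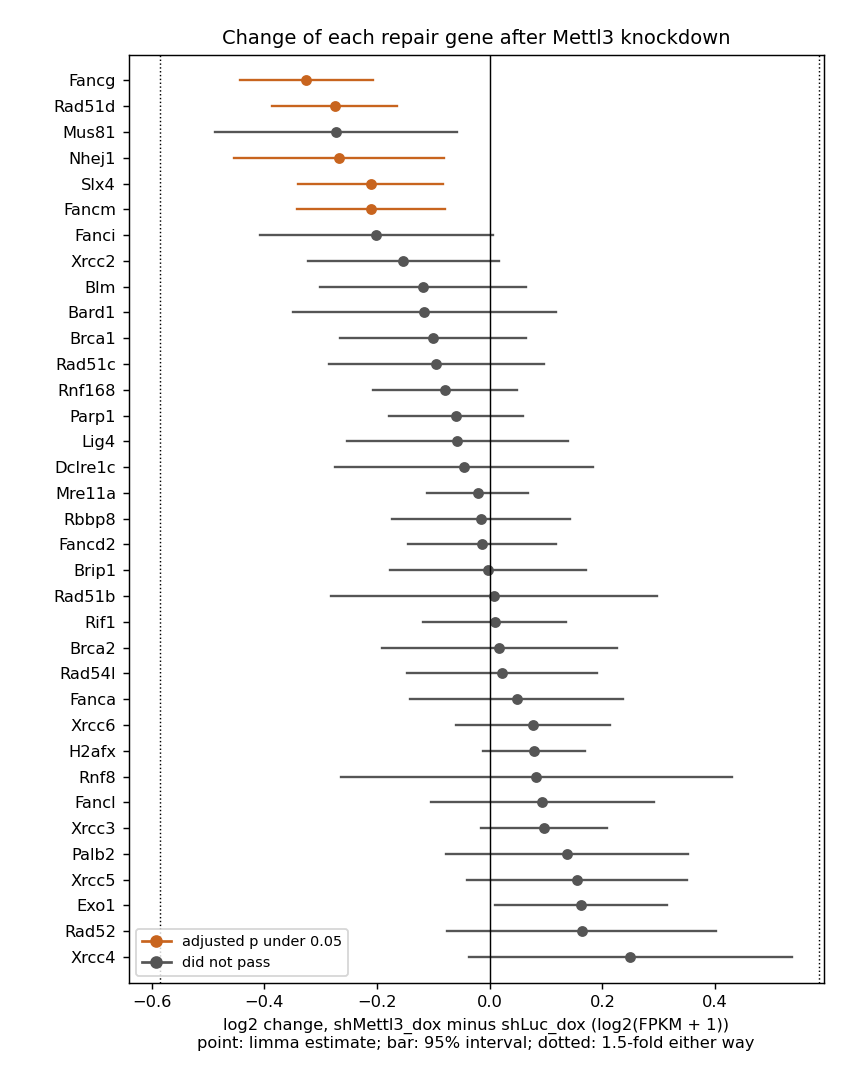
Log2 change of each repair gene (shMettl3_dox minus shLuc_dox on the log2(FPKM + 1) scale) with its 95% interval from limma. Orange marks an adjusted p under 0.05, and dotted lines mark a 1.5-fold change either way on that scale. The estimates run from -0.33 for Fancg to 0.25 for Xrcc4, and all 35 intervals lie between the dotted lines, reaching from -0.49 (the lower end for Mus81) to 0.54 (the upper end for Xrcc4).

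For the 30 genes that did not pass, the intervals bound the change on the log2(FPKM + 1) scale, which understates the change of low genes. On this scale the 95% limma interval lay within a 1.5-fold change either way for all 35 genes, beside 82.1% of all genes tested. It lay within 1.2-fold for 14 of the 35 (40.0%, beside 30.6% of all). The 1.5-fold count was 34 with a pseudocount of 0.1, and 33 with edgeR and 32 with DESeq2, whose log2 changes carry no pseudocount. The smallest standard errors were those of Mre11a (1866 to 2729 recovered reads per library), H2afx (2012 to 3256), Rad51d (915 to 1423), Xrcc3 (563 to 857) and Fancg (392 to 573). That of Parp1, which had the most reads (5018 to 7562), was larger than all of these, so the order of precision was not that of depth. The widest intervals belonged to Rnf8, Xrcc4 (163 to 309) and Rad51b (68 to 137).

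Many of these proteins work as fixed partners, so the ratio between partner genes was compared within each library for 12 pairs. With 3 libraries against 3 the smallest exact two-sided permutation p is 0.1, so no pair could pass 0.05, and after adjustment over the 12 pairs the lowest value was 0.4. The ratio of Xrcc4 to Nhej1 was 0.256, 0.256 and 0.282 in the control libraries and 0.347, 0.343 and 0.594 in the knockdown libraries. With every knockdown library above every control library for Xrcc4 and below for Nhej1, the groups could not overlap. The log2 ratio differed by 0.65 (exact permutation p = 0.1), or by 0.38 without shMettl3_dox replicate 3. Xrcc4 to Lig4 was 0.590, 0.504 and 0.590 against 0.648, 0.713 and 0.898, again without overlap (log2 difference 0.41, exact permutation p = 0.1; 0.28 without that library). The other 10 ratios overlapped between the groups. Xrcc5 to Xrcc6, the Ku subunits, was at 0.906, 0.973 and 0.881 against 0.868, 0.896 and 1.18 (exact permutation p = 0.9). Knockdown replicate 3 was the only library with more Xrcc5 than Xrcc6. Fancd2 to Fanci had a mean ratio of 1.3 and 1.51 (log2 difference 0.21, exact permutation p = 0.2), Rad51d to Xrcc2 of 2.80 and 2.59 (-0.11, exact permutation p = 0.2) and Slx4 to Mus81 of 1.64 and 1.74 (0.08, exact permutation p = 0.4). Rad51c to Xrcc3 had 0.281 and 0.240 (-0.23, exact permutation p = 0.2) and Brca2 to Palb2 1.54 and 1.39 (-0.15, exact permutation p = 0.2). For Brca1 to Bard1 the means were 1.37 and 1.39 (0.02, exact permutation p = 0.9), for Brip1 to Brca1 0.513 and 0.552 (0.11, exact permutation p = 0.3), for Rnf8 to Rnf168 0.116 and 0.133 (0.20, exact permutation p = 0.4) and for Rad51b to Rad51c 0.412 and 0.456 (0.15, exact permutation p = 0.4).

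**Figure D4:**
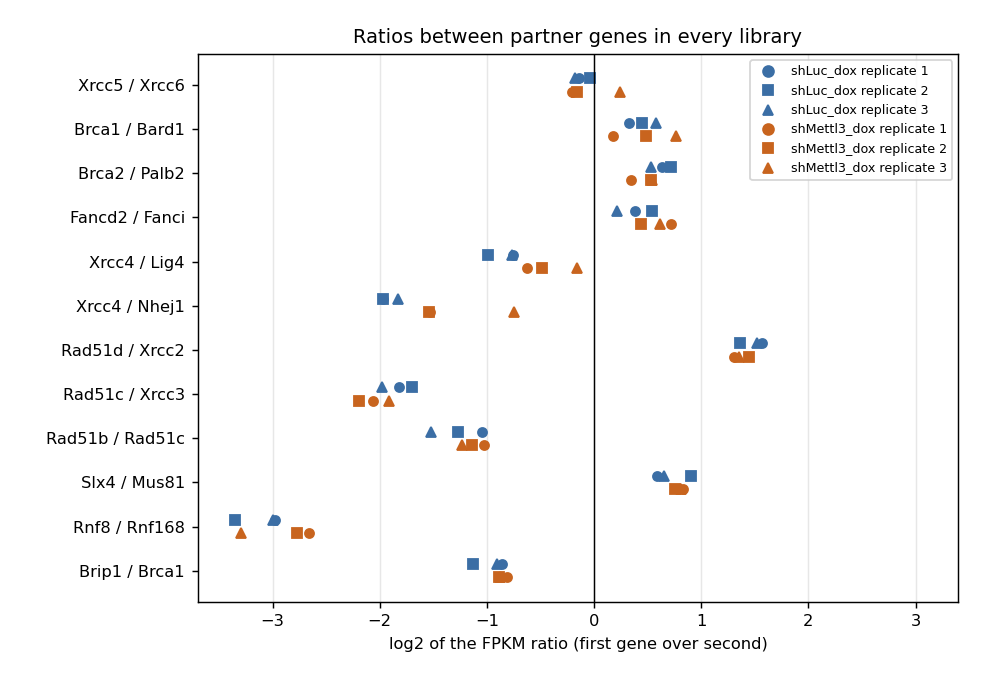
Log2 of the FPKM ratio of the first to the second gene of 12 partner pairs in every library; blue symbols are shLuc_dox, orange symbols shMettl3_dox, and the shape gives the replicate. Only Xrcc4 / Lig4 and Xrcc4 / Nhej1 separate the groups, with shMettl3_dox replicate 3 farthest to the right in both.

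The 35 genes were set beside 95 further genes of the same routes, all of which were tested. Of these 9 were lower (9.47%) and 13 higher (13.7%), with a median log2 change of 0.02, beside 13.5% lower, 14.6% higher and a median of 0.01 over all genes tested, so neither share was above that of all genes. By count tests edgeR and DESeq2 each called 11 of the 95 lower and 14 higher. Across all genes edgeR called 16.4% lower and 17.0% higher, and DESeq2 16.5% and 15.7%. Among the lower were Xrcc1, a scaffold of single-strand break repair (-0.59), Dna2, a resection nuclease (-0.44), Rnf169, which binds ubiquitinated chromatin at breaks (-0.38), Atm, the break kinase (-0.33), and Mdc1, the reader of phosphorylated H2A.X (-0.28). Of the 6 higher genes with the smallest p, Nbn, the partner of Mre11a, rose from 14.6 ± 0.784 to 19.4 ± 0.638 FPKM (0.39, limma adjusted p = 0.00269), and Faap24, the partner of Fancm, from 5.86 ± 0.613 to 8.87 ± 0.496 FPKM (0.53, limma adjusted p = 0.00350). Faap100 (0.48) and Fancb (0.37), which form a core module with Fancl, rose as well, as did Usp1, which removes ubiquitin from Fancd2 (0.34), and Tdp1, which clears protein adducts from DNA ends (0.29). Atm lost its call when any library but shLuc_dox replicate 1 or shMettl3_dox replicate 3 was left out (limma adjusted p from 0.0511 to 0.0635). The count of 9 lower was 5 when any of shLuc_dox replicates 2 and 3 and shMettl3_dox replicate 1 was left out. That of 13 higher was 7 when any of replicates 1 and 2 of either group was left out, and 8 with libraries scaled to their protein-coding sum. Under that scaling the split over all genes was 1927 lower and 1263 higher (60.4% of calls lower), in place of 1633 and 1763 (48.1%), and the lower repair genes were the 5 and Mus81.

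Cell cycle genes differed between the groups. The share of the 35 repair genes that was lower, 14.3%, lay near that of all genes tested, 13.5%. Of 27 S phase and replication genes 8 were lower and 0 higher (1 higher at an unadjusted p under 0.05 in limma, and 0 by edgeR and DESeq2), with a median log2 change of -0.08. Of 22 G2 and mitosis genes 14 were higher and 0 lower (0 lower at an unadjusted p under 0.05, and 0 by edgeR and DESeq2), with a median of 0.27. The lower S phase genes were 29.6% of their list, beside 13.5% of all genes tested. The higher G2 and mitosis genes were 63.6% of theirs, beside 14.6%. The 8 became 4 when any of shLuc_dox replicates 1 and 2 and shMettl3_dox replicate 1 was left out, and 5 without shMettl3_dox replicate 2; without shMettl3_dox replicate 3 they were 11, with 1 higher. The 14 became 9 without shMettl3_dox replicate 1. The part of cell cycle stage, and that of the epithelial and leukocyte markers given above, in the 5 lower repair genes was not tested.

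The length and composition of the 35 genes, which their choice by name did not use, varied widely. Gene span ran from 1384 bases (H2afx) to 517409 bases (Rad51b), and its median was 47700 bases, beside 24196 for the 10653 protein-coding genes tested with an annotated transcript, and their median coding length was 2196 beside 1392 bases. Brca2 had the longest coding sequence (9987 bases) and H2afx the shortest (429 bases). The median GC content of the longest transcript was 46.2% beside 50.0%. The motif GGACT, a common core of N6-methyladenosine sites, occurred 1.10 times per kilobase of transcript beside 1.04, from 0.177 in Bard1 to 2.69 in Exo1; whether any of these is methylated was not measured. Across the 35 genes Spearman's rho with the log2 change lay between -0.15 (transcript length) and 0.14 (gene span), given as a description since genes are not replicates.

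Within 1000 bases of their start, 8 of the 35 genes have a protein-coding neighbour transcribed the other way, and none of the 5 lower genes is among them. Tex14, the neighbour of Rad51c, was under the filter. Of the 7 neighbours tested 1 passed the threshold, beside 13.5% lower and 14.6% higher over all genes tested. This was Zfyve21, whose start lies 297 bases from that of Xrcc3; it went from 19.1 to 12 FPKM (log2 change -0.62, limma adjusted p = 0.00305), while Xrcc3 was at 0.10 and did not pass. Of the 5 lower genes only Fancm shares exon bases with other annotated genes on the other strand (1.56% and 5.51% of its exons), and both of these were below 0.1 FPKM in the group means. The sources used here do not say whether reads were assigned by strand, so reads of overlapping genes on opposite strands may not have been told apart.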

How the data were processed

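RNA-seq was deposited for 6 libraries, 3 per group, and grouped by title. Per the labels' protocols total RNA was extracted with TRIzol and libraries were made with a NEBNext Ultra kit. Tools named in the submitters' processing notes, without roles, are DESeq2, featureCounts 1.5.3, STAR and fastp, with the build mm10. The first deposited table gives FPKM, in which the authors divided reads by gene length and library size. The second, deposited for genes the authors found lower in the knockdown, gives a normalized read count signal (reads divided by the authors by 1 size factor per library), the authors' log2 fold change and the authors' p-values. It served for recovering reads and for naming the listed members. No column belonged to other samples (0).

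The main test was limma 3.58.1 (R 4.3.3) on log2(FPKM + 1), eBayes with a trend, for genes averaging at least 1 FPKM, two-sided, adjusted by Benjamini-Hochberg over all 12098 genes at a threshold of 0.05. Log2 changes are on this scale, which understates the change of low genes, unless a count test or the authors are named. Whole reads were recovered from FPKM, a library factor and the exon length in GENCODE M21 (within 0.001 read for 96.6% of the 26328 genes above 0). For 775 more, among them Rbbp8 and Rnf8, another length served and reads are fixed only to within a shared whole-number factor, so depths are lower bounds. On these reads edgeR 4.0.16 (quasi-likelihood) called 1988 genes lower and 2053 higher, and DESeq2 1.42.0 called 1996 and 1896. Partner ratios were tested by exact permutation. Coordinates are 1-based, as GENCODE M21 gives them on GRCm38 (mm10). The procedure was tested on simulated data with the same spread set for every library. A library that stands apart, as shMettl3_dox replicate 3 does here, was not simulated. Python 3.11.15, numpy 2.4.6, pandas 2.3.3, scipy 1.17.1 and matplotlib 3.10.9 were used.

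The members, the lists and the alternatives were chosen with earlier results of these data known. All 35 members were named, with Mettl3 and up to 6 further pathway genes per direction with the smallest p; the features GGACT and neighbouring starts, and the neighbour and overlapping genes, were added after values were seen. Alternatives were another pseudocount, no filter, 2 other scalings, no trend, the replicate number as a block, the count tests and fits without each library. Protein sequences were not used here. Of the genes the rule named, 1 is not reported here.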

Additional observations from a re-analysis of the deposited data

How the results depend on the processing

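Over 14 alternatives, 602 of the log2 changes of named genes kept direction and side of the threshold, 25 lost the call, 6 gained it and 25 changed sign, none of the last for a called gene. Rad51d and Fancg were lower in each of the 14. The count of lower members, 5, was 2 without the filter on low values (which tests 26328 genes) and 2 to 4 with 1 library left out. For the further pathway genes the 9 lower became 5 to 9 and the 13 higher became 7 to 11 with 1 library left out; the higher were 7 without the filter, 8 with the protein-coding scaling, and 8 without the trend. With the replicate number as a block 4 members were lower (Fancm lost its call, adjusted p = 0.0557) and 8 further genes higher. Same-numbered libraries deviated together with correlations of 0.0340, -0.0068 and 0.0631. With 3 libraries per group these values cannot settle whether same-numbered libraries share an origin, which the labels do not give.

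Changes of sign were among genes near 0. With the protein-coding scaling Brca2 was at -0.018, Rad51b at -0.016, Rad54l at -0.011 and Rif1 at -0.031. With median-of-ratios scaling Rad51b was at -0.00062 and Rif1 at -0.0047. DESeq2 gave -0.015 for Rad51b and -0.0027 for Rif1, and edgeR -0.0077 for Rad51b. With 1 library left out Rnf8 ranged from -0.024 to 0.21, Rbbp8 from -0.059 to 0.048, Brca2 from -0.078 to 0.074, Rad51b from -0.094 to 0.075, Rad54l from -0.017 to 0.083, Lig4 from -0.13 to 0.0084, Rif1 from -0.042 to 0.048, Fancd2 from -0.045 to 0.036 and Brip1 from -0.053 to 0.046. The log2 ratio difference ranged from -0.060 to 0.16 for Xrcc5 to Xrcc6 and from -0.12 to 0.17 for Brca1 to Bard1. The causes were not tested beyond the samples or genes each alternative removes. Recovered reads were 68 to 137 per library for Rad51b and 138 to 202 for Nhej1, and 3 libraries against 3 give an exact p of 0.1 at the lowest.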
